A study of Mus musculus with 4 samples.

Results

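The desmosome genes examined here were 10: the desmogleins Dsg1a, Dsg2 and Dsg3, the desmocollins Dsc1, Dsc2 and Dsc3, the plaque genes Pkp1, Dsp and Jup, and Cdsn, which encodes corneodesmosin. They were chosen by name, and each was read from the probe set that the array annotation assigns to it, the one with the highest mean over the 4 arrays where there were several. The annotation named a probe set for 9 of the 10, out of 18193 genes with a probe set of their own; Dsg3 was not named by it and was not analysed here. All 9 were kept, since no filter on dim genes was applied. Skin of female wild-type BALB/c mice was compared on 2 arrays after MC903 (calcipotriol, an analogue of vitamin D used to provoke skin inflammation in mice) and on 2 arrays after the vehicle ethanol, called Control. Mice of both groups had earlier been sensitised by putting the egg protein ovalbumin together with MC903 on the ear skin, and all were given ovalbumin by mouth, so the Control mice had also met MC903. MC903 or ethanol was applied after the first oral challenge, the mice were challenged again, and the treated skin then gave the RNA. Ages, and whether an array held RNA of 1 animal or of several, are not given in the labels.

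Desmosomes are the spot-like junctions that tie the keratin filaments of neighbouring keratinocytes together. Desmogleins and desmocollins are cadherins whose outer parts bind across the gap between cells, plakoglobin (Jup) and plakophilins hold their tails, and desmoplakin (Dsp) links this plaque to keratin. In stratified epidermis the isoforms follow the layers: Dsg2, Dsg3, Dsc2 and Dsc3 belong mainly to the basal and lower layers, whereas Dsg1 and Dsc1 belong to the suprabasal layers. Corneodesmosin is added to the desmosome on the way to the stratum corneum, and the kallikrein proteases that degrade it allow dead cells to be shed.

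Array values were linear scaled signals with a trimmed mean of 500 on each array, and the highest signal of an array was 41771 to 50150. The annotation assigned 19 probe sets to the 9 measured genes. Their signals on the chosen probe sets were 440.2 or more on every array, against 1.55 to 24 for the bacterial TrpnX controls. Differences are given as MC903 minus Control in log2(signal + 16), a scale that shrinks the difference of a dim gene, with the SE of limma's fit over all genes. The skin label fitted the marker signals: the basal keratins Krt5 and Krt14 stood between 27480 and 39813, and all 8 suprabasal keratinocyte markers read 3528 or more on every array. Whether the 2 samples of a group are separate animals is not stated, so the spread behind each p-value may be technical only, and 2 arrays a group limit the precision. In whole skin, fewer cells of a type and less RNA per cell cannot be told apart.

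Among the 9 genes, Cdsn and Dsc2 were higher after MC903 by more than the other members, and the remaining 7 lay between -0.23 and 0.30 on the log2 scale. limma with a constant prior variance called 0 of the 9 at an adjusted p below 0.05, against 0% of all genes (0 of 18193), while an unadjusted p below 0.05 was reached by 1 member higher and 0 lower, against 6.82% of all genes higher and 8.39% lower. Both MC903 arrays lay above both Control arrays for 4 members (Cdsn, Dsc2, Dsc1 and Pkp1), where 21.6% of all genes did so, and below both for 1 (Dsc3), where 28.2% did. The other 4 overlapped. The median difference over the 9 was 0.15, against -0.04 over all genes. The counts are small, and nothing particular to the desmosome is read from them. After quantile normalization the bright members moved down together, Cdsn from 1.07 to 0.89, Dsc1 to 0.091, Pkp1 to 0.065 and Jup to 0.091. Dsp moved to -0.13, Dsc3 to -0.26 and Dsg1a to -0.45, while Dsc2 stood at 1.38.

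**Figure D1:**
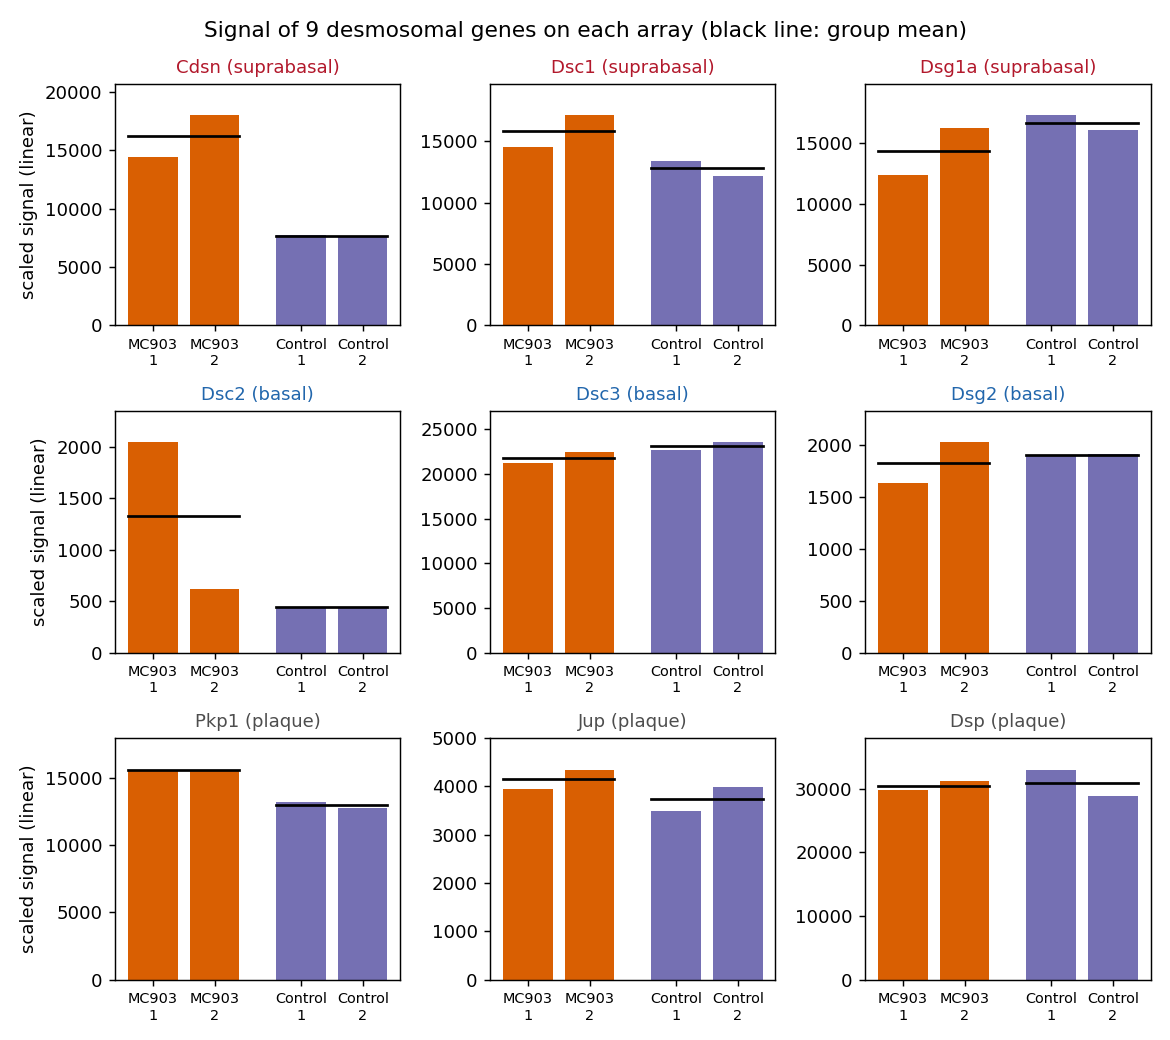
Scaled linear signal (vertical axes, each starting at 0) of the 9 measured desmosome genes on the 2 MC903 and 2 Control arrays, with a bar for each array and a black line at the group mean. Cdsn stands near 14455 and 18007 in MC903 against 7715 and 7595 in Control, and Dsc2 is high on MC903 replicate 1 alone (2044) and at 619.9 on MC903 replicate 2, while the bars of Dsp and Dsc3 are close to level.

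Of the suprabasal genes, Cdsn differed most. Corneodesmosin is the adhesive protein of the outermost living and cornified layers. Its signal was 14455 and 18007 on the MC903 arrays, against 7715 and 7595 on the Control arrays. Both MC903 values exceeded both Control values by a wide margin, and the Control arrays were nearly equal. The means were 16231 ± 2511 in MC903 and 7655 ± 85.3 in Control (SD, n = 2 each). The log2 difference was 1.07 ± 0.18 (SE), a 2.11-fold higher value, with limma's 95% interval running from 0.58 to 1.57. limma with a constant prior gave an adjusted p of 0.181 (unadjusted p = 0.0034). In limma with a prior variance that follows the signal, Cdsn was called higher (adjusted p = 0.0424) and no other member was called either way; that fit called 0.539% of all genes higher and 0.385% lower. That call was lost without Control replicate 1 and without Control replicate 2. Without either MC903 array the spread came only from the nearly equal Control arrays, so those fits cannot show whether the call holds. The difference itself stayed between 0.92 and 1.23 with any 1 array left out.

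The sequence before the Cdsn gene is shown because Cdsn had the smallest p of the members, and those before Jup and Dsp, whose groups overlapped, to set beside it. They are the 250 bases upstream of each RefSeq gene start on GRCm38.p6, written 5′ to 3′ on the gene's strand, and the RefSeq promoter table held 3 of the 10 genes, Cdsn with a pair of starts. Capitals mark the GC box GGGCGG (or CCGCCC) and the CACC box CCACCC (or GGGTGG), searched on both strands.
Cdsn, upstream start, chr17:35542851-35543100, plus strand: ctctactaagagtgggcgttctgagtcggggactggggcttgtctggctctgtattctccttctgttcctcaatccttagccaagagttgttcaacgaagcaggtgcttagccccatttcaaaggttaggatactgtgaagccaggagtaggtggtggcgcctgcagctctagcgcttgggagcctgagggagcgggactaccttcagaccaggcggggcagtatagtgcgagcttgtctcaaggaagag
Cdsn, downstream start, chr17:35551878-35552127, plus strand: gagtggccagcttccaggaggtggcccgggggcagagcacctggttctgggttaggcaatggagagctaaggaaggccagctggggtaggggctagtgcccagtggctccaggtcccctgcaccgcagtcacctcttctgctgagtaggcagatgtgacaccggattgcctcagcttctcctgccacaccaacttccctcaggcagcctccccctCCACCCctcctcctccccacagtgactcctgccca
Jup, chr11:100397791-100398040, minus strand: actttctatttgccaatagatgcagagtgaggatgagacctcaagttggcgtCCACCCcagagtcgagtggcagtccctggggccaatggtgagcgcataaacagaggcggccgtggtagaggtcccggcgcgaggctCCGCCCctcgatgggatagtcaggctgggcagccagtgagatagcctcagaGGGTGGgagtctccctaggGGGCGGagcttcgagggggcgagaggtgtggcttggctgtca
Dsp, chr13:38151044-38151293, plus strand: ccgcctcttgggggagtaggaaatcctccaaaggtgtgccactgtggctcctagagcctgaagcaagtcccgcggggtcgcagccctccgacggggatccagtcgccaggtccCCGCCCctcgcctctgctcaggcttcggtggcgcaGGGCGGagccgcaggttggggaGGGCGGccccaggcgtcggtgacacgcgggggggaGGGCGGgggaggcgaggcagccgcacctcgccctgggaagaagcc

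The upstream Cdsn window held no match to any motif searched, and the downstream one held 1 CACC box, 35 bases before the gene start. Jup held 2 GC boxes and 2 CACC boxes, and Dsp held 4 GC boxes. GC content was 55.2% and 64% in the Cdsn windows, 62% for Jup and 72.4% for Dsp. Among all 32851 promoter windows of the same 250 bases, 32.7% held a GC box and 28.1% a CACC box. The TATA box TATAAA (12.4% of windows), the AP-1 site TGANTCA (6.75%) and the grainyhead site AACCNGTT (1.79%) were searched on both strands as well and matched none of the 4 windows. No matches overlapped. A match describes letters and is not a binding site, and a missing match says only that these letters are not in the window.

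Dsc1, the desmocollin of the suprabasal layers, was slightly higher. Its signals were 14488 and 17119 in MC903, against 13421 and 12157 in Control. The groups did not overlap, but the lowest MC903 array lay only a little above the highest Control array. The log2 difference was 0.30 ± 0.18 (SE, n = 2 each), with a 95% interval from -0.18 to 0.78 (limma, adjusted p = 0.482). A second, dimmer probe set of Dsc1 read 3262 and 3882 in MC903, against 2147 and 2028 in Control. There the difference was 0.77 ± 0.19, larger than on the chosen probe set, and in the fit over all probe sets it was not called either (limma, adjusted p = 0.322).

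Dsg1a, one of the mouse genes for desmoglein 1, the partner cadherin of Dsc1 in the upper layers, was not higher. Its signals were 12378 and 16255 in MC903, against 17268 and 16045 in Control. MC903 replicate 1 was the lowest of the 4 arrays, and MC903 replicate 2 lay between the Control arrays. The log2 difference was -0.23 ± 0.20 (SE, n = 2 each) and -0.03 without MC903 replicate 1, with a 95% interval from -0.78 to 0.32 (limma, adjusted p = 0.631). Its paralog Dsg1b, named after its values were seen, read 2001 and 3541 in MC903, against 2439 and 2391 in Control. The Dsg1 paralogs share much of their sequence, so either probe set may also report its paralog. Over the 3 suprabasal genes the differences ran from -0.23 to 1.07 with a median of 0.30. All 3 read lower on MC903 replicate 1 than on MC903 replicate 2, by 0.32 (Cdsn), 0.24 (Dsc1) and 0.39 (Dsg1a) in log2. This was not particular to the suprabasal genes. Every other measured member except Dsc2 read lower there too, the basal Dsg2 by 0.31 and Pkp1 by almost nothing.

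Of the basal isoforms, Dsc2 had the highest difference of the 9 genes and the widest spread. Dsc2 is the desmocollin found in simple epithelia and heart as well as in skin. Its signals were 2044 and 619.9 in MC903, against 440.2 and 448 in Control. Both MC903 arrays exceeded both Control arrays, MC903 replicate 1 by a log2 difference of 2.16 from the Control mean and MC903 replicate 2 by 0.47. The log2 difference was 1.31 ± 0.60 (SE, n = 2 each), with a 95% interval from -0.29 to 2.92 (limma, adjusted p = 0.391). It came to 0.47 without MC903 replicate 1 and to 2.16 without MC903 replicate 2, so its size rests on single arrays. The other probe set of Dsc2 had the same pattern, with 958.7 and 301.8 in MC903, against 212.9 and 270 in Control, a difference of 1.12 ± 0.58.

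Leukocyte genes were also higher on the MC903 arrays. The summed signal of 8 leukocyte markers was 30084 and 24749 in MC903, against 17153 and 19471 in Control. All 8 read above both Control arrays in both MC903 arrays, where 21.6% of all genes did so. At an unadjusted p below 0.05 in limma, 4 of the 8 were higher, where 6.82% of all genes were. With either prior, 0 were called at an adjusted p below 0.05. The lowest single value was 52.8, above the 1.55 to 24 of the TrpnX controls. Of the 8 markers, the integrin gene Itgam read 436.5 and 120.4 in MC903, against 85.6 and 68.2 in Control (limma, unadjusted p = 0.0763). Cd14, an endotoxin co-receptor of myeloid cells, read 1741 and 370.4 in MC903, against 288.8 and 334.3 in Control (limma, unadjusted p = 0.149). These 2 markers were higher on MC903 replicate 1 than on replicate 2 by 2.18 (Cd14) and 1.73 (Itgam) in log2, against 1.70 for Dsc2. Another 5 markers (Ptprc, Cd3e, Cd3g, Csf1r and Cd52) exceeded replicate 2 there by 0.29 to 0.69, and Lyz2 was lower on replicate 1, at 9677, than on replicate 2, at 11510. Of 9087 other genes with a mean signal above the median, the 3 nearest to Dsc2 in their 4 log2 values, each gene centred on its mean, were Fcer1g (distance 0.157), Cd53 (distance 0.169) and Lgmn (distance 0.196). Fcer1g, the Fc receptor gamma chain, read 5104 and 1671 in MC903, against 1091 and 1041 in Control. The part of leukocytes in the Dsc2 signal was not tested.

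Dsc3, the desmocollin of basal keratinocytes, had close values in both groups. Its signals were 21163 and 22490 in MC903, against 22706 and 23525 in Control. Both MC903 arrays lay below both Control arrays, by little. The log2 difference was -0.08 ± 0.15 (SE, n = 2 each), with a 95% interval from -0.50 to 0.33 (limma, adjusted p = 0.826). Its dimmer probe set went the same way, with 1123 and 1550 in MC903, against 1662 and 1981 in Control, a difference of -0.45 ± 0.25 (limma over all probe sets, adjusted p = 0.523).

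Dsg2, the desmoglein shared by most epithelia, had overlapping groups. Its signals were 1634 and 2023 in MC903, against 1901 and 1910 in Control, so that the Control arrays lay between the MC903 arrays. The log2 difference was -0.07 ± 0.18 (SE, n = 2 each), or 0.014 with arrays centred on their medians, with a 95% interval from -0.56 to 0.42 (limma, adjusted p = 0.887). Of its 6 probe sets, 1 dim probe set had the largest difference, 0.78 ± 0.39, reading 98.1 and 41.3 in MC903, against 26.4 and 36.2 in Control. The remaining 5 lay between -0.15 and 0.01.

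**Figure D2:**
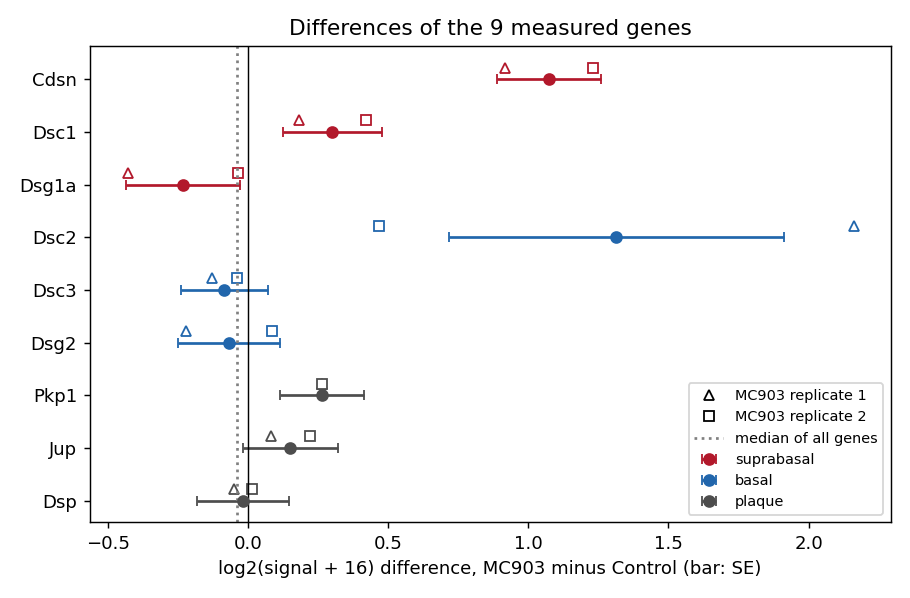
Log2(signal + 16) difference, MC903 minus Control (horizontal axis), of the 9 measured genes, with filled circles for the fitted difference, bars for its SE, a triangle and a square for each MC903 array against the Control mean, and a dotted line at the median of all genes (-0.04). The triangle and square of Dsc2 stand at 2.16 and 0.47, far wider apart than those of Cdsn at 0.92 and 1.23, and those of Pkp1 coincide.

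Set beside each other, the basal isoforms had differences from -0.08 to 1.31 with a median of -0.07 over 3 genes, and the suprabasal genes had differences from -0.23 to 1.07 with a median of 0.30 over 3 genes. The ranges overlap, and no test of isoform class was made. Dsc2 set the upper end of the basal range and Cdsn that of the suprabasal one. Corneodesmosin is no cadherin; the suprabasal cadherins alone were Dsc1, at 0.30, and Dsg1a, at -0.23. Markers of the layers were read as lists, against 21.6% of all genes above both Control arrays and 28.2% below both. The 7 basal keratinocyte markers had a median difference of -0.11, with 3 above both Control arrays and 4 below, and a summed signal of 105035 and 101967 in MC903, against 104203 and 105150 in Control. The 8 suprabasal keratinocyte markers had a median difference of 0.19, with 4 above both Control arrays and 0 below, and a summed signal of 194321 and 220949 in MC903, against 174127 and 158352 in Control. The suprabasal keratin gene Krt1 (1.30 ± 0.17) and the cornified envelope gene Ivl (1.12 ± 0.27) were the 2 of these past an unadjusted p of 0.05 in limma (adjusted p = 0.156 and 0.234). Over all genes, 6.82% were higher at that unadjusted p. In limma with the prior that follows the signal, Krt1 was called higher, like Cdsn (adjusted p = 0.0236), and Ivl was not called (adjusted p = 0.109). The lowest signal was 776.7 in the basal list and 3528 in the suprabasal one. The part of keratinocyte layer makeup in the Cdsn difference was not tested.

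The plaque genes, which serve all living layers, had differences from -0.02 to 0.26 with a median of 0.15 over 3 genes. Pkp1, the plakophilin that recruits desmoplakin in epidermis, read 15618 and 15623 in MC903, against 13230 and 12769 in Control. The groups did not overlap, and the MC903 arrays were almost equal. The difference was 0.26 ± 0.15 (SE, n = 2 each), with a 95% interval from -0.14 to 0.67 (limma, adjusted p = 0.472). Jup, the gene of plakoglobin, read 3950 and 4351 in MC903, against 3488 and 3989 in Control, a difference of 0.15 ± 0.17, and its groups overlapped (limma, adjusted p = 0.706; 95% interval from -0.31 to 0.61).

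Dsp, the gene of desmoplakin, read 29854 and 31149 in MC903, against 33028 and 28845 in Control. The MC903 arrays lay between the Control arrays, and the difference was -0.02 ± 0.16 (SE, n = 2 each), or 0.063 with arrays centred on their medians, with a 95% interval from -0.46 to 0.43 (limma, adjusted p = 0.972). Its other 2 probe sets had differences of 0.26 ± 0.18 and -0.15 ± 0.21, so the direction of Dsp was not the same on all 3. The chosen probe sets of Dsp and Jup carry a suffix that marks probes shared with other transcripts.

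**Figure D3:**
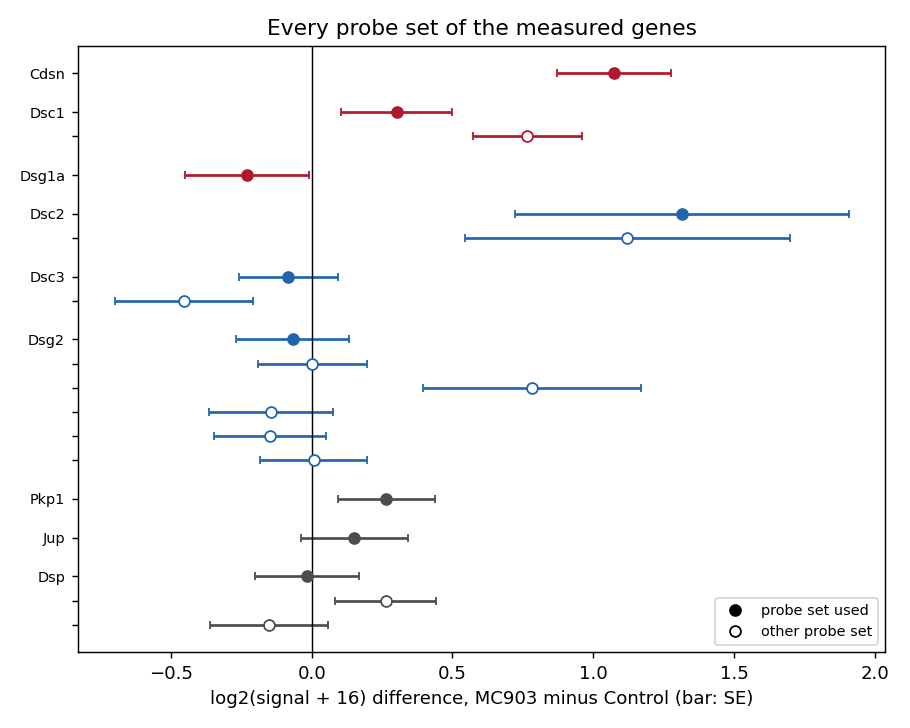
Log2(signal + 16) difference, MC903 minus Control (horizontal axis), with its SE as a bar, for all 19 probe sets of the 9 genes, filled where the probe set was used and open otherwise, from a fit over all probe sets. Both probe sets of Dsc2 and of Dsc1 lie right of 0 and both of Dsc3 left of it, while those of Dsg2 and Dsp fall on either side.

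Of the 10 probe sets that were not chosen, 6 went the same way as the chosen one and 4 the other way, and these 4 belonged to Dsg2 (3 probe sets) and Dsp (1 probe set). Cdsn, Dsg1a, Pkp1 and Jup had 1 probe set each, so no second reading of them was available on these arrays.

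The other genes of desmosomes and neighbouring junctions were counted from lists of 46 genes, of which 41 were measured. Of these, 4 were higher and 1 lower at an unadjusted p below 0.05 (limma), against 6.82% and 8.39% of all genes, and 0 at an adjusted p. Their median difference was 0.13. The 7 measured genes among the other desmosome components had 0 past that p in either direction and a median of 0.14. The widest differences there were those of Pkp2, a plakophilin of heart and simple epithelia, at -0.26 ± 0.21, and Ppl, whose product periplakin links the plaque to the cornified envelope, at -0.22 ± 0.20. Pkp2 was dim (118.4 to 180.8), and its other probe sets differed by 0.37, 0.09 and -0.67. The first of these read 1.02 to 17 and the last 10.9 to 32.1, in or near the 1.55 to 24 of the TrpnX controls. No direction is read for Pkp2. Ppl was also the nearest of 9087 genes to Dsg1a (distance 0.0164), reading 4282 and 5555 in MC903, against 5910 and 5475 in Control. Arhgef5 (distance 0.0185) and Osgepl1 (distance 0.0219) followed.

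Among 7 measured genes that cut or spare desmosomal proteins, 2 were higher at an unadjusted p below 0.05 in limma and 0 lower. Over all genes, 6.82% were higher and 8.39% lower. The median difference of the 7 was 0.43, and 5 lay above both Control arrays, as 21.6% of all genes did. Klk7, the chymotrypsin-like kallikrein that cleaves corneodesmosin, read 20651 and 18693 in MC903, against 9271 and 8506 in Control. It was the 1 gene of the 41 that was 2-fold or more higher in all 4 pairings of arrays, where 1.16% of all genes were, and 0 of the 41 were 2-fold or more lower in all, where 0.813% were. Its difference was 1.14 ± 0.16 (limma, adjusted p = 0.16 with the constant prior and 0.0272 with the prior that follows the signal). The second of these ended without Control replicate 1 (adjusted p = 0.3365) and without Control replicate 2 (adjusted p = 0.399). Adam17, a membrane sheddase that can release desmoglein ectodomains, differed by 0.47 ± 0.16, reading 2132 and 2320 in MC903, against 1682 and 1526 in Control (limma, adjusted p = 0.31).

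At an unadjusted p below 0.05 in limma, 6.82% of all genes were higher and 8.39% lower. The lists below are short, and nothing particular to a list is read from their counts. The median difference of the 10 adherens junction genes, which encode the actin-linked junction beside the desmosome, was -0.01. Of these, 1 was higher at an unadjusted p below 0.05 and 0 were lower. This was Nectin1, an immunoglobulin-like adhesion gene, which read 204 and 205.5 in MC903, against 104.1 and 95.3 in Control, a difference of 0.93 ± 0.15 (limma, adjusted p = 0.178). Of 8 measured hemidesmosome genes, which anchor basal cells to the basement membrane, 0 were higher and 1 lower, with a median of -0.07. Dst, whose epithelial product ties keratin to the hemidesmosome, read 7794 and 7468 in MC903, against 11721 and 12250 in Control, a difference of -0.65 ± 0.15 (limma, adjusted p = 0.229). Of 9 measured epidermal transcription factors, 1 was higher and 0 lower, with a median of 0.20. Grhl3, a grainyhead factor of the epidermal barrier, read 1673 and 2557 in MC903, against 1217 and 1261 in Control, a difference of 0.73 ± 0.26 (limma, adjusted p = 0.312).

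**Figure D4:**
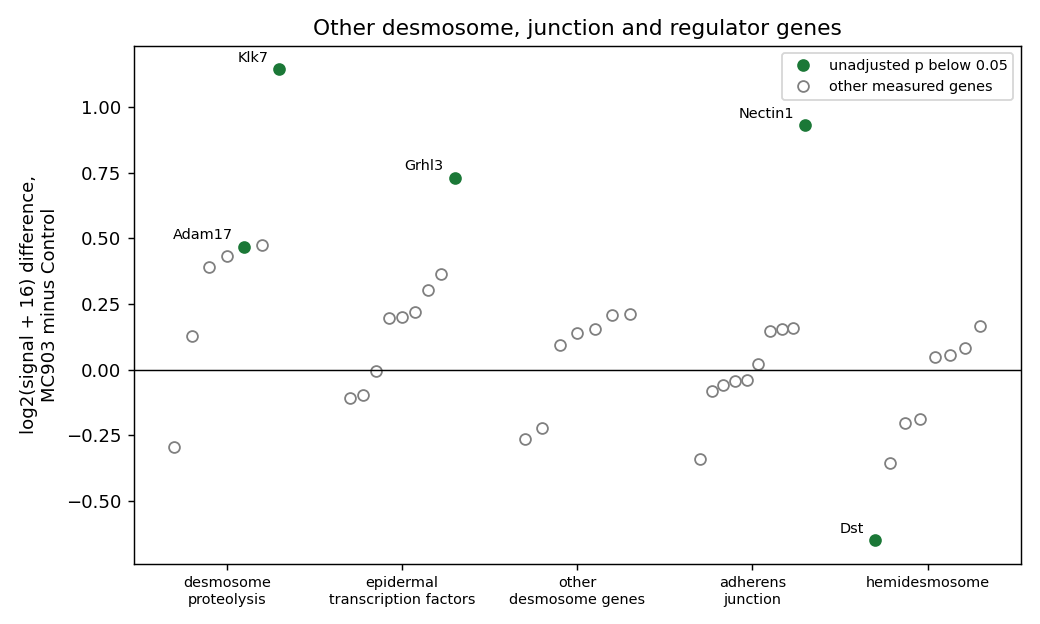
Log2(signal + 16) difference, MC903 minus Control (vertical axis), of the 41 measured genes in 5 lists, with a circle for each gene, filled and named where limma's unadjusted p was below 0.05. Klk7 (1.14), Nectin1 (0.93), Grhl3 (0.73) and Adam17 (0.47) are filled above 0 and Dst (-0.65) below it, and the other 36 lie between -0.36 and 0.48.

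Hair follicles also carry desmosomes, and their markers differed widely. All 12 follicle markers lay below both Control arrays, where 28.2% of all genes did, and their median difference was -3.12. Their summed signal was 10914 and 9620 in MC903, against 34928 and 58654 in Control, with a lowest value of 17.9. Skeletal muscle markers were uneven, with a summed signal of 11821 and 44995 in MC903, against 57452 and 34549 in Control, 1 of 8 lying below both Control arrays. The lowest follicle value, that of the marker Krt33b on MC903 replicate 1, lay within the 1.55 to 24 of the TrpnX controls. The lowest muscle value was 395.5. The part of follicle or muscle content in the desmosome signals was not tested.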

How the data were processed

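Per the labels' protocols, 200 ng of skin RNA per sample was biotin-labelled for 3′ expression arrays. The deposited table holds intensity values, linear scaled signals of 45101 probe sets on 4 arrays, with a trimmed mean of 500 on each (2% cut at either end, tested on the deposited values); the sources used here do not give the software that made them, and there are no detection calls. Probe sets were named from the platform annotation, and symbols were updated by Entrez ID through the RefSeq table of GRCm38.p6: 34945 had 1 symbol (34741 matched), 932 several and 9160 none listed, and 64 array controls were left out. A gene was read from its probe set with the highest mean of log2(signal + 16) over the 4 arrays. MC903 and Control arrays (2 each, from the labels) were compared over 18193 genes with limma 3.58.1 in R 4.3.3 (lmFit, eBayes with a constant prior, Benjamini-Hochberg, threshold 0.05), with no further normalization. Residual degrees of freedom were 2 and prior ones 2.32. With 2 arrays against 2, the smallest two-sided p of an exact permutation test is 0.333. The fit was tested on data simulated under its own assumptions, which says nothing on how well these arrays meet them. Promoter windows came from RefSeq, and motifs were searched as plain letters.

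The members, lists and tests were chosen with earlier results of these data known. All members were named; of each other list, genes past an unadjusted p of 0.05 (at most 6) or else the 2 with the widest differences; and the 3 genes nearest to the highest and the lowest member. Alternatives were other added constants, quantile normalization, centring on medians, a filter on dim genes, the mean of probe sets, single probe sets, other priors, the replicate number as a block and omission of single arrays. Choosing probe sets on linear signals, and leaving out arrays or blocking with the prior that follows the signal, were added after the data had been seen. Where an array was omitted, its group had 1 array, taken to vary as the other group does. No 2 arrays held identical values. Nothing in the labels pairs the replicate numbers.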

Additional observations from a re-analysis of the deposited data

How the results depend on the processing

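Over 14 settings, Cdsn stayed higher in MC903 (0.89 to 1.23) and Dsc2 too (0.47 to 2.16), as did Dsc1, Pkp1 and Jup, and Dsg1a and Dsc3 stayed lower. Other priors, the replicate block and the filter on dim genes leave a difference as it is, so its direction could not turn there. Choosing probe sets on linear signals picked the same ones for every measured member. The mean of probe sets could not move Cdsn, Dsg1a, Pkp1 or Jup, which have 1 probe set each. The sign of Dsg2 turned when centred on array medians (0.014), with the mean of all probe sets (0.071) and without MC903 replicate 1 (-0.22 to 0.086 without 1 array), and on 3 of its other probe sets (0.0021, 0.78 and 0.0065). That of Dsp turned when centred (0.063), with the mean of probe sets (0.031), without Control replicate 1 or MC903 replicate 1 (-0.12 to 0.080 without 1 array) and on 1 other probe set (0.26). Cdsn was called with the prior that follows the signal (1.07, adjusted p = 0.0424), in which 98 genes were higher and 70 lower, against 0 and 0 with the constant prior. In that fit Cdsn lost its call without Control replicate 1 (1.09) and without Control replicate 2 (1.06), with 0.92 to 1.23 over the 4 fits without 1 array.

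Genes called higher and lower came to 41 and 29 with log2(signal + 64), 22 and 14 without the dimmest 25% of genes, 9 and 3 with the mean of probe sets, and 3 and 2 with probe sets chosen on linear signals. Quantile normalization and centring gave 3 higher each. Without 1 array there were 0. Members past an unadjusted p of 0.05 came to 2 higher with the mean of probe sets and with the prior that follows the signal, and to 1 to 2 without 1 array. Members below both Control arrays came to 3 after quantile normalization and 0 after centring, and to 1 to 3 without 1 array, those above both to 4 to 6. The suprabasal median was 0.091 after quantile normalization and 0.53 with the mean of probe sets (0.18 to 0.42 without 1 array). The basal median ran from -0.13 to 0.086 and that of all members from 0.080 to 0.23 without 1 array. Of the other junction and regulator genes, 2 were higher with log2(signal + 1), 2 lower with log2(signal + 64) and after quantile normalization, 9 higher and 3 lower with the prior that follows the signal, and 2 to 5 higher and 0 to 1 lower without 1 array. The cause of these changes was not tested.

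With the replicate block, Cdsn differed by 1.07 (adjusted p = 0.308), and 3 junction and regulator genes were higher, against 4. It changed no member's call with the constant prior, where there was none, and with the prior that follows the signal Cdsn kept its call (1.07, adjusted p = 0.0374). Deviations of same-numbered arrays from their group means correlated at -0.06 over genes. Such a value, from 2 arrays a group, cannot tell whether they shared any handling, and the labels do not pair them. With 2 arrays a group, the 95% interval of each member but Cdsn includes 0.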
